A study of Mus musculus with 6 samples.

Results

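Retinoic acid, the active form of vitamin A in most tissues, is made, carried, bound and broken down by a small set of proteins, and the genes described here encode 9 of them: Aldh1a1, Aldh1a2, Aldh1a3, Rbp4, Stra6, Crabp1, Crabp2, Cyp26a1 and Cyp26b1. They were picked by gene symbol, by a rule that uses no measured level although earlier results of these data were known when it was made, and all 9 were found among the 46983 genes of the expression table. The RNA came from aortic valves of wild type mice of the C57BL/6J strain, taken on postnatal day 2 (PND2) or in adults aged 4 months, and each age gave 3 libraries. No treatment was given at either age. Each library came from valves pooled from 5 to 6 mice, pups at the first age and adults at the second, which were dissected to keep heart muscle out and then flash frozen. A library is therefore an average over several animals and over all cell types of the valve, and fewer cells of a type and less RNA per cell cannot be told apart in it.

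Cells take up retinol from the blood, where it travels on retinol binding protein, and oxidise it first to retinaldehyde and then, by the retinaldehyde dehydrogenases of the Aldh1a family, to retinoic acid. Inside the cell, retinoic acid is held by the Crabp proteins, binds nuclear receptors of the Rar and Rxr families that sit on DNA, and is destroyed by the cytochromes of the Cyp26 family. The balance of Aldh1a and Cyp26 enzymes sets where retinoic acid acts in the embryo, and in the developing heart Aldh1a2 of the epicardium is a known source of it.

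Levels are given as RPKM, the reads on a gene divided by its exonic length and by the library total, so that levels of different genes can be set side by side. Library totals ran from 23810507 to 38994657, so that a single read on 1 kb of exon came to 0.0256 to 0.0420 RPKM. The sources used here do not say if a total counts single reads or pairs of them, and the reads summed over genes came to 2.31 to 2.36 times the totals, so the read numbers below are those that RPKM, length and total imply and may not be independent fragments. The 10 interstitial and fibroblast markers had a summed level of 6619 to 7304 RPKM at PND2 and 8080 to 10191 RPKM at 4 months. Heart muscle genes were present too, with a summed level of 10 cardiomyocyte markers of 18248 to 20737 RPKM at PND2 and 6320 to 10872 RPKM at 4 months. For 8 smooth muscle markers the summed level was 7228 to 8320 RPKM at PND2 and 16736 to 27917 RPKM at 4 months. The sex makeup of the pools differed within each age: Xist, expressed from the inactive X chromosome of females, was at 109, 0.0457 and 0.101 RPKM in the PND2 libraries and at 0.154, 110 and 40.8 RPKM in the libraries of 4 months. One library of 4 months, replicate 2, also held the most adipocyte RNA, with a summed level of 12 markers of 1743 RPKM against 573 and 569 RPKM in the other libraries of that age. The libraries of both ages were compared with limma on log2(RPKM + 0.1) over the 25903 genes with at least 0.1 RPKM in 3 or more libraries, and a gene was called at a Benjamini-Hochberg adjusted p under 0.05. The 0.1 added before taking logs shrinks the fold changes of weakly expressed genes. The median gene lay at -0.14 on it and at -0.02 after scaling each library to the same median, and that scaling turned the calls over all genes from 3810 higher and 5463 lower at 4 months to 4601 higher and 4129 lower.

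All 9 genes passed the filter, and 6 of them were called, beside 35.8% of all genes tested. Rbp4, Stra6, Aldh1a1 and Aldh1a3 rose to 4 months (14.7% of all genes did), and Crabp1 and Cyp26a1 fell (21.1% of all genes did). The same 6 genes had changes over 2-fold and libraries that did not overlap between the ages, which held for 17.2% (with a call) and 50% of all genes. Aldh1a2, Crabp2 and Cyp26b1 did not pass the test. The 4 rises held under each alternative run that could test the gene, apart from Aldh1a1 under the study's per-gene test, whereas both falls were lost under several.

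**Figure D1:**
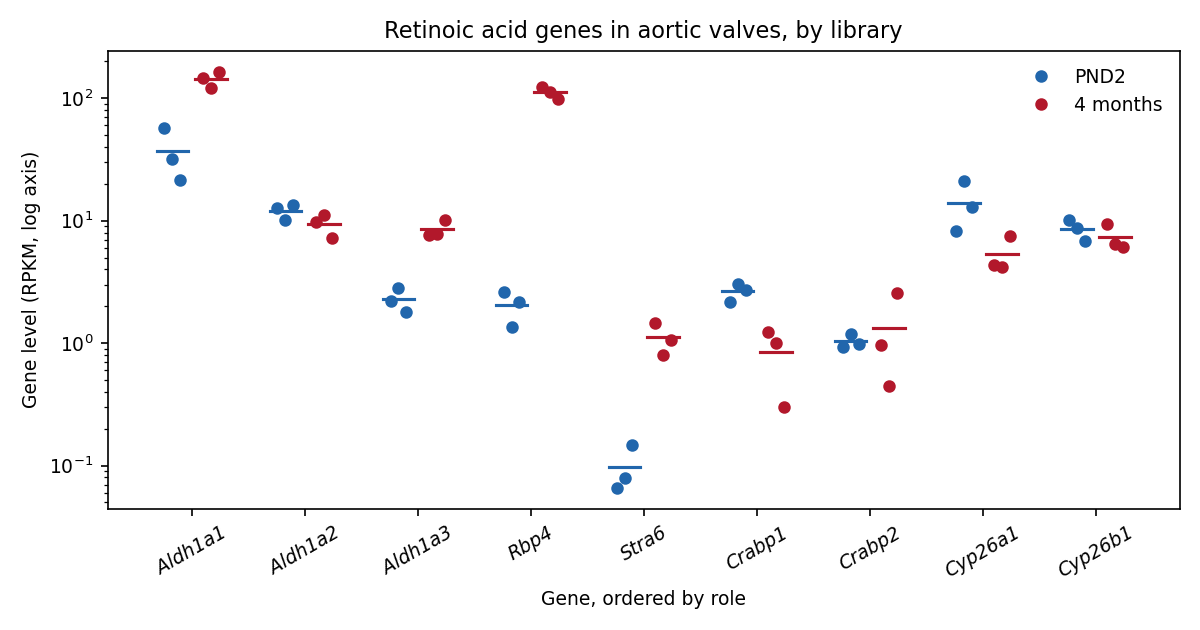
Levels of the 9 retinoic acid genes (RPKM, log axis) in the 3 PND2 libraries (blue) and the 3 libraries of 4 months (red), 1 point per library with a bar at the mean of each age. Rbp4 stood at 1.36 to 2.63 RPKM at PND2 and at 98.6 to 124 RPKM at 4 months, the widest separation of the 9, while Aldh1a2, Crabp2 and Cyp26b1 overlapped between the ages.

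The order of the levels changed between the ages. At PND2 Aldh1a1 was highest, with every library above those of the next gene. Cyp26a1, Aldh1a2 and Cyp26b1 followed and overlapped one another, and below them came Crabp1, Aldh1a3 and Rbp4, which overlapped as well. Crabp2 stood under these, and Stra6 was lowest at 0.0971 ± 0.0433 RPKM (SD, n = 3). At 4 months Aldh1a1 and Rbp4 stood together at the top and overlapped, both above all libraries of the next 4 genes (Aldh1a2, Aldh1a3, Cyp26b1 and Cyp26a1, each overlapping its neighbour). The lowest 3, Crabp2, Stra6 and Crabp1, overlapped from neighbour to neighbour.

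The synthesising enzymes did not move together. Aldh1a1 (chromosome 19, mm10, 20601961 to 20643462, plus strand), which also oxidises other aldehydes, was at 57.3, 32.1 and 21.6 RPKM in the PND2 libraries and at 147, 121 and 165 RPKM at 4 months. All 3 adult libraries were above all 3 PND2 libraries, although the PND2 libraries themselves ranged from 21.6 to 57.3 RPKM. The rise was 3.91-fold on the means, 37.0 ± 18.3 to 144 ± 22.2 RPKM (SD, n = 3), with a log2 fold change of 2.07 (SE 0.33, limma adjusted p = 0.00301). A recomputed unequal-variance test of each gene by itself, the kind of test the study used, gave an adjusted p of 0.0826. All 13 of its annotated exons were above PND2 in every adult library, by 3.59 to 4.73-fold, beside 14.8% of all exons with a mean of at least 0.1 RPKM. Its neighbouring paralog Aldh1a7 could take some of its reads, or give it some, where their sequences agree. Aldh1a7 was at 6.91, 4.47 and 2.71 RPKM at PND2 and at 6.73, 14.7 and 7.64 RPKM at 4 months and was not called (log2 1.04, limma adjusted p = 0.0823). It is not one of the 9 and was looked at after the values of Aldh1a1 were seen.

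Aldh1a3 (chromosome 7, 66390892 to 66427517, minus strand), the retinaldehyde dehydrogenase of eye and nasal development, was far lower than Aldh1a1 at both ages. Its level was 2.21, 2.85 and 1.80 RPKM at PND2 and 7.70, 7.76 and 10.2 RPKM at 4 months. The libraries within an age lay close together and the ages did not overlap. The rise was 3.75-fold (log2 1.87, SE 0.22, limma adjusted p = 8.99e-04). Of the 19 exons that reached a mean of 0.1 RPKM, 18 were higher in every adult library, beside 14.8% of all exons with such a mean.

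Aldh1a2 (chromosome 9, 71215789 to 71296243, plus strand), the main enzyme of retinoic acid synthesis in the early embryo, was at 12.8, 10.1 and 13.4 RPKM at PND2 and at 9.83, 11.1 and 7.23 RPKM at 4 months. The ages overlapped through the second library of each. The estimate was a log2 fold change of -0.37 with a 95% interval of -0.83 to 0.08 (limma adjusted p = 0.175), so a fall of more than 2-fold lay outside the interval. Of its 14 exons, 2 were lower in every adult library, beside 24.3% of all exons with a mean of at least 0.1 RPKM. Markers of the epicardium and mesothelium, where Aldh1a2 is known to be made, were present at both ages, and none was at 0. Of the 12 markers, 2 (Msln and Tcf21) were lower by the test, beside 21.1% of all genes. The summed level of the 12 was 310 to 431 RPKM at PND2 and 231 to 325 RPKM at 4 months. Their part in the level of Aldh1a2 was not tested.

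Summed over the 3 enzymes, the Aldh1a level was 51.4 ± 18.5 RPKM at PND2 and 162 ± 21.4 RPKM at 4 months (SD, n = 3). Aldh1a1 made up 79.3, 71.2 and 58.7% of this sum at PND2 and 89.4, 86.5 and 90.5% at 4 months, with no overlap. The share of Aldh1a2 ran the other way, from 17.7, 22.5 and 36.4% to 5.97, 7.96 and 3.96%. The share of Aldh1a3 overlapped between the ages, at 3.05 to 6.32% and 4.68 to 5.59%. These shares are descriptions and were not tested.

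**Figure D2:**
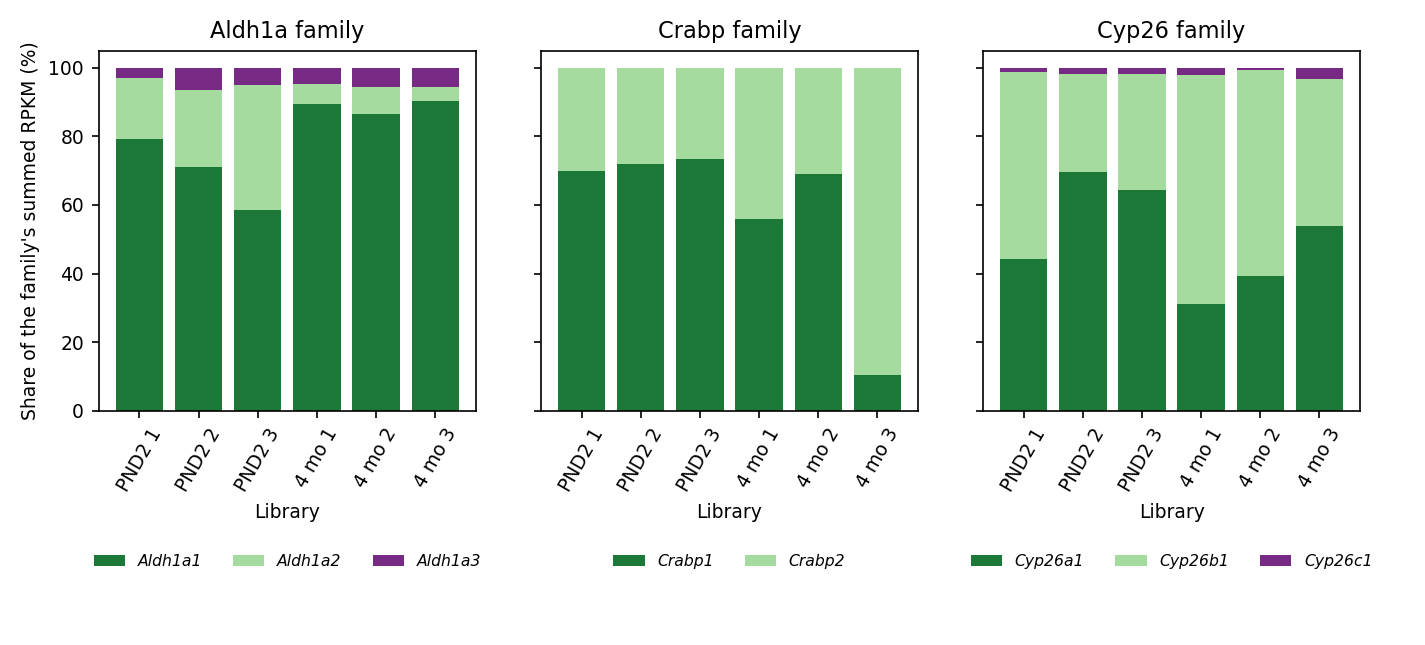
Share of each paralog in the summed RPKM of its family (percent, stacked to 100%) in each of the 6 libraries, for Aldh1a (left), Crabp (middle) and Cyp26 (right). Aldh1a1 held 58.7 to 79.3% of the Aldh1a sum at PND2 and 86.5 to 90.5% at 4 months, while Crabp1 fell to 10.4% of the Crabp sum in 1 library of 4 months only.

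Rbp4 (chromosome 19, 38116620 to 38125321, minus strand) encodes the protein that carries retinol in the blood, made by liver and also by fat tissue. It was the member with the largest change. Its level was 2.63, 1.36 and 2.16 RPKM at PND2, from 133, 54 and 82 reads, and 124, 112 and 98.6 RPKM at 4 months, from 6022, 3466 and 3700 reads. The adult libraries differed by 1.26-fold from highest to lowest and all were far above PND2. The rise was 54.4-fold on the means, with a log2 fold change of 5.74 (SE 0.23, 95% interval 5.20 to 6.28, limma adjusted p = 2.06e-05), the 38th highest of the 25903 genes tested. Over all alternatives the log2 fold change stayed between 5.22 and 5.93.

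Adipocyte markers rose at the same age: 9 of 12 were called higher at 4 months, beside 14.7% of all genes, and none lower. Their summed level went from 132 to 210 RPKM at PND2 to 569 to 1743 RPKM at 4 months. Cidec and Lep were at 0 in all 3 PND2 libraries, and Adipoq was at 0.0475 to 0.198 RPKM. At 4 months Adipoq was at 34.2, 134 and 41.2 RPKM, so replicate 2 held 3.57 times the mean of the other 2 libraries. Over the 12 markers the same ratio ran from 1.08 for Plin4 and 1.43 for Slc2a4, both called higher, to 4.90 for Cfd. For Rbp4 it was 1.01. From lowest to highest, the 4-month libraries differed 1.20-fold in Plin4, 3.93-fold in Adipoq and 1.26-fold in Rbp4. Without replicate 2 of 4 months the log2 fold change of Rbp4 was 5.73. That fit still set adult libraries with Adipoq at 34.2 and 41.2 RPKM against PND2 libraries at up to 0.198 RPKM. It did not test the part of adipocytes. Of the 9 liver and blood-borne markers 7 could be tested. Alb, Apoa1, Apoa2 and Ttr (4 of the 7) were called lower at 4 months, beside 21.1% of all genes, and none was higher. The summed level of the 9, 921 to 1292 RPKM at PND2 and 371 to 1085 RPKM at 4 months, came mostly from the globin genes Hbb-bs and Hba-a1. None of the 9 was at 0 in every library. Apoa2 was at 1.10, 0.549 and 1.46 RPKM at PND2 and at up to 0.515 RPKM at 4 months, Alb reached 0.35 RPKM and Serpina1a 0.717 RPKM. The part of either cell type in the level of Rbp4 was not tested.

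**Figure D3:**
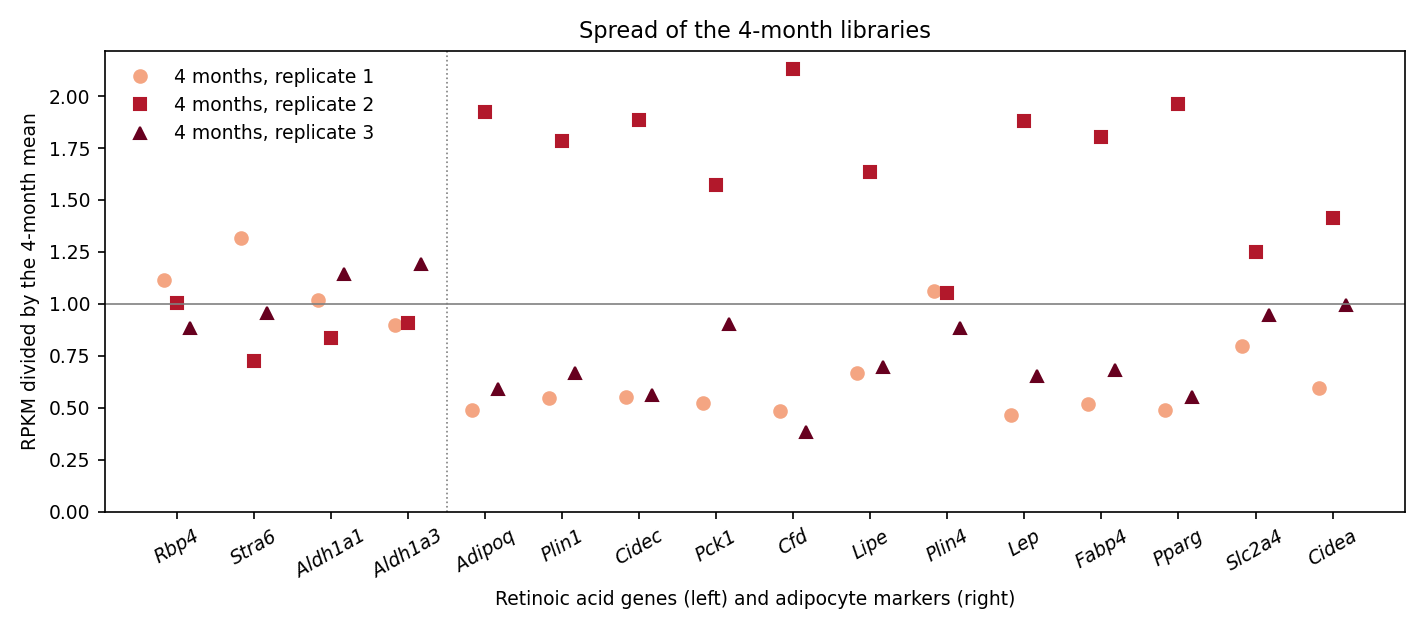
Level of 4 retinoic acid genes (left of the dotted line) and the 12 adipocyte markers (right) in each library of 4 months, divided by the mean of the 3 libraries, with a marker shape per replicate and a line at 1. Replicate 2 stood at 2.13 times the mean in Cfd and 1.92 times in Adipoq but at 1.05 times in Plin4, and at 0.73 to 1.00 times the mean in Rbp4, Stra6, Aldh1a1 and Aldh1a3.

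Along Rbp4, all 7 annotated exon intervals were higher in every adult library, beside 14.8% of all exons with a mean of at least 0.1 RPKM. The 5 that held reads at PND2 rose by 36.01 to 69.81-fold. The gene has 2 annotated first exons. The outer one (38124955 to 38125321) was at 0 at PND2 and at 4.01, 5.38 and 7.25 RPKM at 4 months, and the inner one (38124758 to 38124811, of 54 bases, untranslated) was at 0 at PND2 and at 55.0, 38.1 and 42.2 RPKM at 4 months. The inner first exon was thus the better covered at 4 months in all 3 libraries, although exons this short are counted less evenly. The bases upstream of each start are shown because the data separate them. They are RefSeq sequence of GRCm38.p6, the assembly of mm10, on the minus strand, at chr19:38124812-38124954 for the inner start and chr19:38125322-38125471 for the outer one, and capitals mark TATAAA, the core of a TATA box.
Rbp4, inner start: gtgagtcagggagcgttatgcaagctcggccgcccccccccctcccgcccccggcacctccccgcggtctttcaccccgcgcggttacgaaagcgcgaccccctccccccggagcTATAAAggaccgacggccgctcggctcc
Rbp4, outer start: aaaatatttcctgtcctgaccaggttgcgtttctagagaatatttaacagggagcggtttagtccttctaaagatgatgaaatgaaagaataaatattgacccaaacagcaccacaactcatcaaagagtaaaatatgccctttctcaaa
The 6 letters stood 28 to 23 bases before the inner start and were not found in the 150 bases printed before the outer one. Of 32851 promoter windows of 300 bases, 13.6% held TATAAA on either strand, so the match is a description and not evidence of a site.

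Stra6 (chromosome 9, 58063788 to 58153996, plus strand), the membrane receptor that takes up retinol from Rbp4, rose as well but stayed low. It was at 0.0660, 0.0787 and 0.147 RPKM at PND2, from 15, 14 and 25 reads, and at 1.47, 0.807 and 1.07 RPKM at 4 months, from 319, 112 and 180 reads. Every adult library was above every PND2 library. The rise was 11.5-fold on the means. On log2(RPKM + 0.1), which shrinks changes at such low levels, it was 2.61 (SE 0.35, limma adjusted p = 0.00170). That value ran from 0.93 with a pseudocount of 1 to 3.60 in a test on the reads. The gene spans Ccdc33 on the other strand and Gm16131, but shares no exon with them. Of its 43 annotated exon intervals, many of which overlap one another, 24 reached a mean of 0.1 RPKM. Of these 24, 18 were higher in every adult library, beside 14.8% of all exons with such a mean. The rise was 8.44-fold or more in the 11 of the 18 that held reads at PND2. The first 19 intervals held almost nothing, with sums of 0, 0 and 8 reads at PND2 and 2, 0 and 0 reads at 4 months, so the signal came from the intervals that begin at base 58140414 or after it. Both the carrier Rbp4 and its receptor Stra6 therefore had more RNA at 4 months, though Rbp4 stood at 112 ± 12.9 RPKM and Stra6 at 1.11 ± 0.332 RPKM (SD, n = 3).

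The binding proteins were weakly expressed, with all but the PND2 level of Crabp1 among the lowest 3 of the 9. Crabp1 (chromosome 9, 54764748 to 54773110, plus strand), which holds retinoic acid in the cytoplasm, was at 2.17, 3.06 and 2.73 RPKM at PND2, from 68, 75 and 64 reads, and at 1.24, 0.995 and 0.302 RPKM at 4 months, from 37, 19 and 7 reads. The ages did not overlap, and the adult libraries spread widely, with replicate 3 lowest. The level at 4 months was 0.318 of that at PND2 (log2 -1.71, SE 0.46, limma adjusted p = 0.0255). The call was lost without PND2 replicate 2 (adjusted p = 0.0735) or PND2 replicate 3 (0.0730), with the Xist level as a covariate (0.0517) and in the per-gene test (0.135), while the direction stayed the same in all of these. Exons 2 and 3 were lower in every adult library, and exons 1 and 4 overlapped between the ages. Of all exons with a mean of at least 0.1 RPKM, 24.3% were lower in every adult library.

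Crabp2 (chromosome 3, 87948666 to 87953376, plus strand), which delivers retinoic acid to its receptors in the nucleus, was at 0.931, 1.19 and 0.982 RPKM at PND2 and at 0.972, 0.445 and 2.59 RPKM at 4 months. The adult libraries spanned 5.82-fold and enclosed all PND2 values. The log2 fold change was 0.04 with a 95% interval of -1.24 to 1.33 (limma adjusted p = 0.962), so a change of 2-fold in either direction could not be told from none at this spread. The estimate was -0.56 without 4-month replicate 3 and -0.02 without PND2 replicate 1. Crabp1 held 70.0, 72.0 and 73.5% of the summed Crabp level at PND2 and 56.0, 69.1 and 10.4% at 4 months, so the adult share rested on replicate 3, in which Crabp1 was lowest and Crabp2 highest.

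Of the degrading enzymes, Cyp26a1 fell to 4 months and Cyp26b1 was not called. Cyp26a1 (chromosome 19, 37697808 to 37701528, plus strand), itself switched on by retinoic acid in many cells, was at 8.23, 21.01 and 13.0 RPKM at PND2 and at 4.38, 4.22 and 7.54 RPKM at 4 months. The ages did not overlap, but the lowest PND2 library (8.23) and the highest adult one (7.54) lay close together. The level at 4 months was 0.382 of that at PND2 (log2 -1.32, SE 0.37, 95% interval -2.18 to -0.46, limma adjusted p = 0.0279). The call was lost without PND2 replicate 2 (adjusted p = 0.0655), PND2 replicate 3 (0.0731), 4-month replicate 1 (0.0780) or 4-month replicate 2 (0.0835), with Xist as a covariate (0.0591), without the mean-variance trend (0.0533) and in the per-gene test (0.125). The estimate stayed between -1.65 and -0.98. Endothelial markers moved the same way, with 10 of 10 called lower, beside 21.1% of all genes, and none at 0. Their summed level was 709 to 945 RPKM at PND2 and 415 to 430 RPKM at 4 months. They were not alone: 6 of 10 cardiomyocyte and 4 of 7 tested melanocyte markers were called lower. So were 5 of 10 interstitial and fibroblast markers, with 2 higher. No adipocyte, smooth muscle, Schwann cell or macrophage marker was called lower. The part of any cell type in the result was not tested.

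The exons of Cyp26a1 did not all separate the ages: exons 5, 6 and 7 were lower in every adult library, and exons 1 to 4 overlapped. Of all exons with a mean of at least 0.1 RPKM, 24.3% were lower in every adult library. In the first PND2 library the last 4 exons stood at 14.2 RPKM and the first 3 at 1.05 RPKM, a ratio of 13.6. The same ratio was 4.04 and 3.32 in the other PND2 libraries and 3.27, 3.41 and 1.65 at 4 months. This split of the gene was chosen after the exon values were seen. Over 1984 genes, the median ratio of read density in the exons nearer the 3′ end to those nearer the 5′ end was 1.18 to 1.37 in the 6 libraries, and 1.33 in the first PND2 library.

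**Figure D4:**
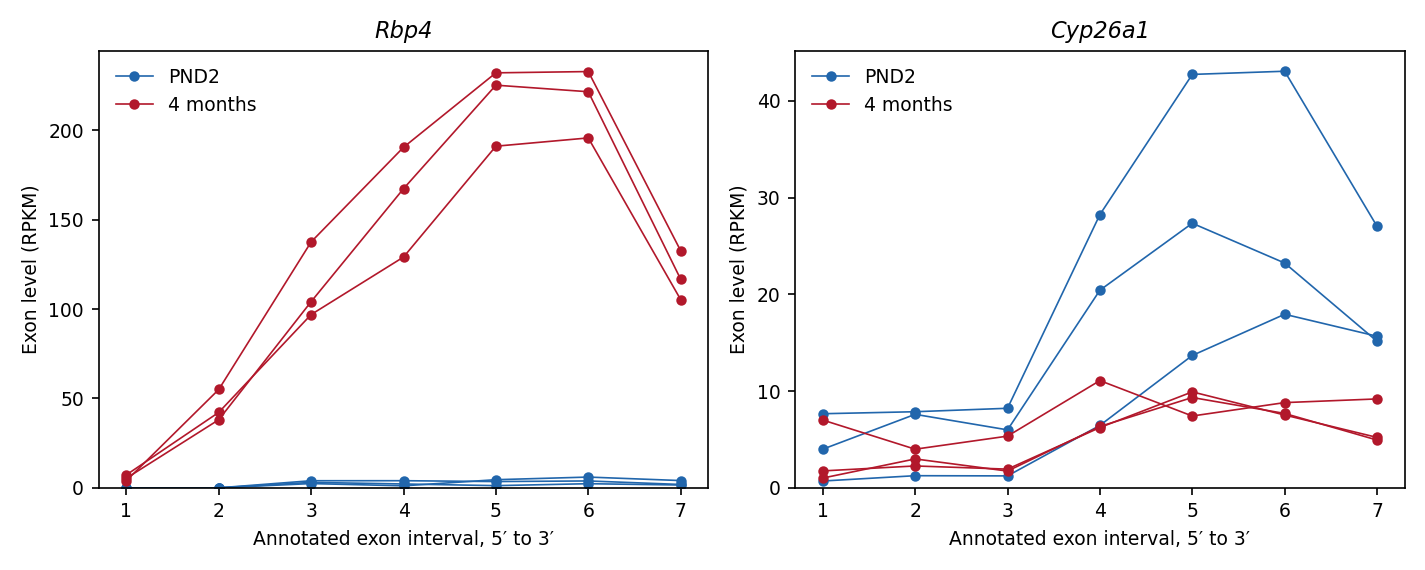
Level of each annotated exon interval (RPKM, linear axis from 0) of Rbp4 (left) and Cyp26a1 (right), numbered from the 5′ end, with 1 line per library, blue for PND2 and red for 4 months. In Rbp4 the adult lines were above PND2 at each of the 7 intervals, and in Cyp26a1 the ages separated only in exons 5, 6 and 7.

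The promoter of Cyp26a1 is shown because a retinoic acid response element is known there. The 150 bases before the RefSeq start (GRCm38.p6, plus strand, chr19:37697658-37697807) hold 2 copies of a receptor half-site in the same orientation with 5 bases between them, the spacing typical of Rar and Rxr pairs. The half-site was searched on both strands as AGGTCA, which is its consensus, and as its known variants AGTTCA, then GGGTCA, and also GGTTCA. In capitals are the half-sites with their spacer, 32 to 16 bases before the start. The promoter of Rarb, a receptor gene and standard target of the pathway, is set beside it (minus strand, chr14:16575477-16575576), with its own pair 53 to 37 bases before the start.
Cyp26a1: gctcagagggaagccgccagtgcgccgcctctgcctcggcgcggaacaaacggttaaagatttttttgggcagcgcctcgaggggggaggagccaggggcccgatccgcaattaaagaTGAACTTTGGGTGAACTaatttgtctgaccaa
Rarb: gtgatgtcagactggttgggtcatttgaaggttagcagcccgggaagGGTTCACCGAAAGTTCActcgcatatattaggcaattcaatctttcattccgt
Such a pair was found in 32 of the 32851 promoter windows, or 0.0974%. Windows were at hand for 7 of the 9 genes (not for Aldh1a3 and Crabp2), and none but Cyp26a1 held it. The pair with 1 base between, present in 0.222% of windows, and that with 2 bases, in 0.268%, were in none of the 7. Of the genes printed above with such a pair, Cyp26a1 was lower at 4 months in the test. Rarb was at 9.67, 9.44 and 11.3 RPKM at PND2 and at 10.995, 11.4 and 8.86 RPKM at 4 months, with overlapping ages (log2 0.04, limma adjusted p = 0.876, and of either sign when single libraries were left out). Levels for the rest of the 32 windows are not given here.

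Cyp26b1 (chromosome 6, 84571414 to 84593908, minus strand), the second degrading enzyme, was at 10.2, 8.68 and 6.83 RPKM at PND2 and at 9.45, 6.41 and 6.05 RPKM at 4 months. The ages overlapped, and 1 of its 13 exon intervals was lower in every adult library, beside 24.3% of all exons with a mean of at least 0.1 RPKM. The log2 fold change was -0.23 with a 95% interval of -0.76 to 0.29 (limma adjusted p = 0.454). Cyp26c1, a further paralog, was at 0.369 ± 0.129 RPKM at PND2 and at 0.271 ± 0.184 RPKM at 4 months (SD, n = 3). Cyp26a1 made up 44.2, 69.6 and 64.3% of the summed Cyp26 level at PND2 and 31.0, 39.4 and 53.8% at 4 months, which overlap. The sum over the 3 genes was 18.6, 30.2 and 20.1 RPKM at PND2 and 14.14, 10.70 and 14.03 RPKM at 4 months, without overlap.

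Set against each other, the synthesising genes outweighed the degrading ones more at 4 months. The summed Aldh1a level was 3.88, 1.49 and 1.83 times the summed Cyp26 level at PND2 and 11.6, 13.1 and 13.0 times at 4 months. Every adult library was above the highest PND2 library, the first. Both sums had moved without overlap, the Aldh1a sum up and the Cyp26 sum down, and 50% of all single genes tested did not overlap either. Aldh1a1 held 58.7 to 90.5% of the Aldh1a sum, and Cyp26a1 was the only Cyp26 gene called. The ratio compares RNA and not enzyme activity.

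**Figure D5:**
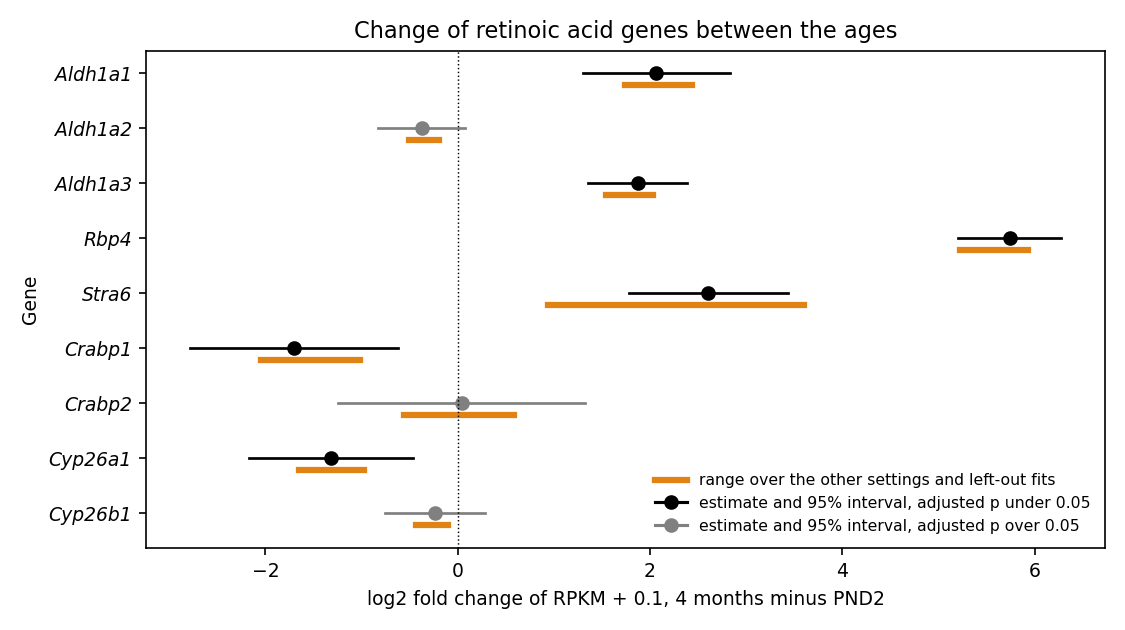
Log2 fold change of RPKM + 0.1 (4 months minus PND2) of the 9 genes, as the limma estimate with its 95% interval (black for an adjusted p under 0.05, grey for over 0.05), and in orange the range of the estimate over the other settings and the fits with a library left out. Rbp4 lay at 5.74, Stra6 had the widest orange range (0.93 to 3.60), and the ranges of Crabp1 and Cyp26a1 stayed below 0 although their calls were lost in some fits.

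Other genes of the pathway were taken from lists made by role, 82 genes in all, of which 81 were in the table (Cyp27c1 was not matched) and 65 passed the filter. Of the 65, 19 rose, 10 fell and 36 were not called, beside 14.7% of all genes higher and 21.1% lower, with a median log2 fold change of 0.15 beside -0.14 over all genes. Of the retinol dehydrogenases and reductases, which carry out the step before the Aldh1a enzymes, 3 of 16 rose and 3 fell. That makes 6 of 16 called, beside 35.8% of all genes. Dhrs3, which turns retinaldehyde back to retinol, was at 23.6, 31.2 and 35.1 RPKM at PND2 and at 88.2, 57.2 and 56.2 RPKM at 4 months (log2 1.15, limma adjusted p = 0.00612). Its call was lost in the per-gene test (adjusted p = 0.0591). Rdh10, the main retinol dehydrogenase of the embryo, was at 4.48 ± 0.233 and 5.11 ± 1.03 RPKM (SD, n = 3) and was not called (log2 0.17, limma adjusted p = 0.531). The calls of Adh7 and Dhrs9 (higher) and of Rdh13, Rdh14 and Adh5 (lower) were each lost in at least 2 of the 6 fits with a library left out, with adjusted p-values of up to 0.114.

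Of 8 tested genes of retinol binding, uptake and storage, 3 rose and 3 fell, beside 14.7% of all genes higher and 21.1% lower. Rbp7, a cellular retinol binding protein, fell from 18.6, 17.9 and 14.4 RPKM to 3.73, 5.85 and 5.10 RPKM (log2 -1.79, limma adjusted p = 6.82e-04). Lrat, which esterifies retinol for storage, was at 0.0422 ± 0.0166 RPKM at PND2 and at 0.436 ± 0.256 RPKM at 4 months (log2 1.82, limma adjusted p = 0.0153). Scarb1, a receptor for lipoproteins and carotenoids, fell from 9.86 ± 0.284 to 4.56 ± 0.614 RPKM (limma adjusted p = 0.00146). Ttr, the blood partner of Rbp4, fell from 0.313 ± 0.0293 to 0.0115 ± 0.0199 RPKM (limma adjusted p = 0.00604). That was opposite to the direction of Rbp4, but the RNA of Ttr was very low at both ages. Alb, Apoa1 and Apoa2 of the liver and blood-borne markers were called lower as well. Lipe, a lipase that is also on the adipocyte list, rose (5.46 ± 0.889 to 19.1 ± 10.5 RPKM), and the call of Bco2, a carotenoid oxygenase, was lost in 4 of the 6 fits with a library left out (adjusted p up to 0.112). Lipe lost its call in the per-gene test (adjusted p = 0.111).

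Among other genes that bind or oxidise retinoids, Fabp5, which can carry retinoic acid to Ppard, fell from 58.5, 46.6 and 45.5 RPKM to 6.70, 13.9 and 6.46 RPKM (log2 -2.55, limma adjusted p = 7.96e-04). The aldehyde oxidases Aox1 and Aox3 rose. Aox1 went from 4.89, 5.71 and 4.72 RPKM to 24.4, 18.9 and 19.6 RPKM (log2 2.01, limma adjusted p = 1.42e-04), and Aox3 from 0.131 ± 0.0683 to 1.80 ± 0.298 RPKM (SD, n = 3, log2 3.07, limma adjusted p = 7.25e-04). Fabp5 and Aox3 fell just short of the threshold in the per-gene test (adjusted p = 0.0548 and 0.0520).

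All 13 receptors and coregulators passed the filter, of which 4 rose, 1 fell and 8 were not called. So 5 of 13 were called, beside 35.8% of all genes. Rxrg, a retinoid X receptor, had the largest change, from 0.380, 0.656 and 0.789 RPKM to 5.62, 9.01 and 7.57 RPKM (log2 3.43, limma adjusted p = 3.14e-04). The retinoic acid receptors differed from one another: Rara fell from 17.7 ± 3.82 to 9.03 ± 0.741 RPKM (log2 -0.94, limma adjusted p = 0.00662), Rarg rose from 21.1 ± 1.97 to 36.2 ± 4.54 RPKM (log2 0.77, limma adjusted p = 0.00343), and Rarb was not called. Rara lost its call in the per-gene test (adjusted p = 0.0836). Rxra was just short of the threshold (22.5 ± 3.95 and 29.8 ± 0.632 RPKM, log2 0.42, limma adjusted p = 0.0524) and passed it after scaling to the median (0.0150). The coactivator Ncoa3 rose from 12.0 ± 0.797 to 24.6 ± 0.691 RPKM (limma adjusted p = 4.02e-04), and the call of Ppard (higher) was lost without 4-month replicate 3 (adjusted p = 0.0516).

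Of 23 tested genes known to respond to retinoic acid in other cells, 7 rose, 2 fell and 14 were not called, so 9 of 23 were called beside 35.8% of all genes, with a median log2 fold change of 0.30. Rarres2, which encodes the secreted protein chemerin, rose from 75.8, 65.1 and 71.6 RPKM to 268, 172 and 210 RPKM (log2 1.59, limma adjusted p = 5.34e-04). Icam1, an adhesion molecule, rose from 7.05 ± 0.946 to 25.0 ± 1.73 RPKM (log2 1.82, limma adjusted p = 1.54e-04), and Rarres1 from 3.37 ± 0.871 to 7.85 ± 1.61 RPKM (log2 1.21, limma adjusted p = 0.00849). Rarres1 was not called in the per-gene test (adjusted p = 0.0593). The homeobox gene Hoxd4 fell from 2.59 ± 0.186 to 1.28 ± 0.167 RPKM (log2 -0.96, limma adjusted p = 0.0113). The calls of Hoxa4, Hoxb4, Nr2f2 and Tgm2 (higher) and Isl1 (lower) were each lost in 4 or more of the 6 fits with a library left out (adjusted p up to 0.112). Of the called pathway genes, the annotated spans of Adh7, Rdh13, Lrat, Lipe, Scarb1, Ttr, Aox3, Rara, Ncoa3, Rarres2, Nr2f2, Tgm2, Hoxa4 and Hoxd4 overlap other genes. Without a statement that strand was used in counting, their values are less certain. Whether any exon of these genes is shared was not examined. Among the 9 genes only the span of Stra6 overlaps other genes, and no exon of the 9 is shared.

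The genes whose profile over the 6 libraries was nearest to each member were sought among 20028 genes with a mean of at least 1 RPKM, by the Euclidean distance between centred log2(RPKM + 0.1) values. Nearest to Rbp4 were H2-Aa (3.23 RPKM at PND2 and 171 RPKM at 4 months, distance 0.40), Itih2 (0.651 and 43.2 RPKM) and Trim58. Nearest to Stra6 were Cygb (34.9 and 213 RPKM, distance 0.26), Flt3l and Pitpnm3. Nearest to Aldh1a1 were Mnda (4.37 and 21.02 RPKM, distance 0.43), Ccr2 and Scimp, and nearest to Aldh1a3 were Timp3 (127 and 502 RPKM, distance 0.29), A530040E14Rik and Fosl2. Mnda and Ccr2 are genes of myeloid cells. Of 10 macrophage markers 8 were called higher at 4 months, beside 14.7% of all genes, and none was at 0. The 10 markers had a summed level of 364 to 416 RPKM at PND2 and 1115 to 1235 RPKM at 4 months. Their part in the rise of Aldh1a1 was not tested. Among the genes that fell, Cyp26a1 was nearest to Ptx3, Unc5b and Gm9103 (distances 0.47 to 0.50), and Crabp1 to Ak5, Mir143hg and Gm1673 (0.48 to 0.54). The nearest genes of Aldh1a2 were Csgalnact1, Atad3aos and Tmem199, those of Cyp26b1 were Lrrc3, Miip and Taf5, and those of Crabp2 were Gm9095, Gm9097 and Gm8739. With 6 libraries at 2 ages, such a distance mostly reflects the difference between the ages and is given as a description.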

How the data were processed

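RNA from pooled aortic valves was sequenced by the authors with a stranded kit and 50 nt paired reads, trimmed, aligned to mm10 with TopHat2 2.1.0 and counted on Ensembl release 83 genes and exons with easyRNASeq. The authors deposited RPKM values, before their read minimum and floor. Whether counting used strand is not given in the sources used here. Whole reads were recovered for 100% of values (tolerance 0.01) from RPKM, length and library total. No column of per-sample values lacked a sample (0 unmapped).

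Age was tested on log2(RPKM + 0.1) with limma 3.58.1 in R 4.3.3 (eBayes with trend, 2-sided, Benjamini-Hochberg over all 25903 genes with at least 0.1 RPKM in 3 libraries), since RPKM are no counts and the unequal-variance test that the study ran gene by gene has little power with 3 libraries a group. That test served as an alternative. Others were pseudocounts of 1 and 0.01, no filter, 1 RPKM in 3 libraries, no trend, voom on the recovered reads, median scaling, quantile normalization, a replicate block, each library left out, unshared exons, and, added after the data were seen, the Xist level as a covariate. The steps were tested on simulated data. Tables were made with Python 3.11.15, pandas 2.3.3 and numpy 2.4.6, and figures with matplotlib 3.10.9. Promoters are RefSeq's (GRCm38.p6), matched by symbol.

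All 9 genes are named, as are the called genes of the pathway lists, in order of role, markers beside a member, and the 3 nearest profiles of each member. Pathway genes that were not called are named only in part, also where their level was high. One list gene is not reported here by itself. The genes and lists were chosen with earlier results of these data known. Intervals of fold changes cover the spread between libraries, and read counts carry counting error only.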

Additional observations from a re-analysis of the deposited data

How the results depend on the processing

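Rbp4, Stra6 and Aldh1a3 were called under every alternative that could test them, and Aldh1a2, Crabp2 and Cyp26b1 under none; a filter of 1 RPKM in 3 libraries left out Crabp2 and Stra6, and the per-gene test left out Crabp2. The per-gene unequal-variance test lost Aldh1a1 (log2 2.07), Crabp1 (-1.73) and Cyp26a1 (-1.34), the Xist covariate, chosen after the data were seen, lost Crabp1 (-1.51) and Cyp26a1 (-1.18), and dropping the mean-variance trend lost Cyp26a1 (-1.32). The number of members called lower, 2, was thereby 0, 0 and 1. With 1 library left out it was 0 to 2, the log2 fold change ran from -2.04 to -1.17 for Crabp1, from -1.65 to -0.98 for Cyp26a1 and from -0.56 to 0.59 for Crabp2, and the pathway genes called lower were 6 to 11. The per-gene test called 7 pathway genes higher and 4 lower, and 19 markers higher and 8 lower. It called fewer genes of all kinds, 1727 higher and 2355 lower of 19971, beside 3810 and 5463 of 25903 in the main fit. Without single libraries the markers called lower were 20 to 28. Over all 25903 genes the same fits called 3503 to 5241 lower. Signs turned with single libraries left out for Cyp26c1 (-0.791 to 0.0273) and Rarb (-0.0338 to 0.147), neither of them called. Same-numbered libraries of the 2 ages did not deviate together (r = 0.04, -0.06 and -0.16 over 25903 genes), and not every library correlated best with its own number. A replicate block called 4 members higher and 2 lower, as without it, and 7167 genes in place of 9273. With single libraries left out the Crabp1 share at 4 months ran from 33.2 to 62.5% and the Aldh1a1 share from 87.9 to 89.9%. Of 93 exon intervals of the members with a mean of at least 1 RPKM, 49 were above and 8 below PND2 in every adult library. At a mean of at least 0.1 RPKM they were 56 and 8 of 107, beside 14.8% and 24.3% of all such exons. The share of all exons at 1 RPKM is not given here. Intervals of the same gene, some of which overlap as in Stra6 and Aldh1a3, are not independent of one another. Low depth limits Crabp1 at 4 months, which rests on 7 to 37 reads.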
